A study of Mus musculus with 5 samples.

Results

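The genes of mouse chromosome 14, which carries the retinoblastoma gene Rb1, were described in 5 mouse small cell lung cancer tumours. Members were the genes placed on chromosome 14 with a mean of at least 16 CPM (a gene's count divided by the total count of its tumour and multiplied by 1000000) over the 5 tumours. The members were thus chosen by their mean level over the same counts that are described below, and with earlier results of these data known, so the shifts along the chromosome are given as a description, with no test. It took 339 of the 2532 genes of chromosome 14, and of 54532 genes in all. Of the 339 members, 335 are annotated as protein coding, and their mean CPM ranged from 16.3 to 1426 with a median of 50.7. The members nearest to the minimum were Ggact at 16.34, Nkiras1 at 16.34 and Oxsm at 16.72 CPM, and the genes just under it were Uggt2 at 15.76, Gm8281 at 15.73 and Grid1 at 15.66 CPM. On the other autosomes, 9470 genes passed the same minimum.

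The tumours came from a mouse model of small cell lung cancer (SCLC), a tumour of neuroendocrine cells of the lung, and all 5 carry the genotype written RPP, whose letters the labels do not expand. Vehicle was given for 2 tumours and LSN, an inhibitor of Aurora A kinase, for 3. No untreated tumour, normal lung, age, dose or length of treatment is given in the sources used here, and the labels do not state whether the tumours are from different animals. Total counts were 17439049 to 19766604 per tumour, of which the members took 2.28 to 3.21%. All 8 neuroendocrine markers were detected in every tumour, with a summed level of 2185 to 6936 CPM. Markers of other cells moved between tumours as well: the 4 lung epithelium markers that lie on other chromosomes summed to 4358 and 3748 CPM in the vehicle tumours and to 718, 60.9 and 343 CPM in the LSN tumours. With the members Sftpc, Sftpd and Sftpa1 added, the 7 markers summed to 6332 and 8502 CPM with vehicle and to 1687, 281 and 1059 CPM with LSN. The sample labels name lung tumours whereas the series' design text names tumour cells, and which of these was sequenced cannot be settled here. If they were tissue, fewer cells of a type and less RNA per cell cannot be told apart. Only RNA was measured, and DNA copy number was not analysed here.

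Rb1 encodes the retinoblastoma protein, which binds E2F transcription factors and holds genes of DNA replication and mitosis silent until cyclin-dependent kinases phosphorylate it. Loss of its function is typical of small cell lung cancer, in patients and in the mouse models built on it. Chromosome 14 also carries genes of other functions relevant here, among them the chromatin regulators Bap1 and Pbrm1, several genes of the mitotic spindle and the surfactant genes of alveolar cells.

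The results below turn on an edge at Rb1 and on cell cycle genes that were mostly lowest in 1 vehicle tumour. Promoters are shown for Rcbtb2, the member before Rb1, and Itm2b, the member after it, and for a pair of cell cycle genes. Promoters were taken from RefSeq on GRCm38.p6, as 300 bases from 250 before to 50 after each gene's start, and 254 of the 339 members were matched by symbol. Rb1 itself was not among them. Capitals mark a match, on either strand, to a cell cycle homology region (CHR: TTTGAA or TTCGAA) or to an E2F element (TTTCCCGC, TTTCGCGC, TTTGCCGC or TTTGGCGC). The order is Rcbtb2 at chr14:73142260-73142559 on the plus strand, Itm2b at chr14:73385240-73385539 on the minus strand, Ska3 at chr14:57826114-57826413 on the minus strand and Cdkn3 at chr14:46760291-46760590 on the plus strand.
Rcbtb2: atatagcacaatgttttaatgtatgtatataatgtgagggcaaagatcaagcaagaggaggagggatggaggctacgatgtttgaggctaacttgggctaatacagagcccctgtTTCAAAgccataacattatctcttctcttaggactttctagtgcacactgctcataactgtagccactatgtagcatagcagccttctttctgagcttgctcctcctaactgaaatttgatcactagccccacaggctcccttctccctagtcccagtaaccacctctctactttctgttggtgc
Itm2b: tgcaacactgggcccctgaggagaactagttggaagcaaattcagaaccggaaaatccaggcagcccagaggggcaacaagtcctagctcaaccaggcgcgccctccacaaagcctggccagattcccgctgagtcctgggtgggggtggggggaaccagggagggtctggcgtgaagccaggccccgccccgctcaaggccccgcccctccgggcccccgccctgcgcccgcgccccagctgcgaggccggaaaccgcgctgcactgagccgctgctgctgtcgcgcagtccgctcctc
Ska3: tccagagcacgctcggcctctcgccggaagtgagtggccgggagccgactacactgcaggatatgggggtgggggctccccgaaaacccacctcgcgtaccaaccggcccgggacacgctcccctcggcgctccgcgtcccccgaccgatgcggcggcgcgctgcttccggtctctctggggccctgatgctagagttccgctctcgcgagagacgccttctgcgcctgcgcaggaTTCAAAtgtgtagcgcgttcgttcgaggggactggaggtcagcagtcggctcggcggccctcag
Cdkn3: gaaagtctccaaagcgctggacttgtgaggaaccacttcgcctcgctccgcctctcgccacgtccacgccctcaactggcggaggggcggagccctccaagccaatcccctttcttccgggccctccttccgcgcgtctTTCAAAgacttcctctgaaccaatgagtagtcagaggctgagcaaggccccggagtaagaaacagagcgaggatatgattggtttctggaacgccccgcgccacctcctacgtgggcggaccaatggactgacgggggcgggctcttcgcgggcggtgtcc
The Rcbtb2 start in that table lies 19473 bases from the gene start of the deposited table, so it belongs to another transcript than the outermost one. Rcbtb2, Ska3 and Cdkn3 each hold 1 CHR match, read here as TTCAAA, and Itm2b holds none of these letters in this window. An E2F match was present in 2.76% of the members' promoters and in 2.26% of all 32851 promoters of the table. A CHR match was present in 14.2% of the members' promoters against 19.2% of all, and a CCAAT match in 40.6% against 37.4%, while the median GC content was 61.7% against 52.7%. These sets are unlike: members pass the minimum CPM and enter with 1 promoter each, while every promoter of the table enters whatever its gene's level. The part of that in these differences was not tested. Of the 6 cell cycle members with a promoter in the table, 0 held an E2F match and 2 a CHR match. These 2 are the pair shown, Ska3 and Cdkn3, so the pair does not stand for the group. Cdkn3 was close in both vehicle tumours, with a mean of 16.7 CPM (standard deviation 0.69). With LSN its mean was 23.5 CPM (standard deviation 4.48).

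Chromosome 14 genes were lower in vehicle replicate 1 than in the other 4 tumours. For each gene and tumour, the shift is log2(CPM + 1) minus the mean of that value in the other 4 tumours, less the median of the same difference over the other autosomes. The median shift of the 339 members was -0.47 in vehicle replicate 1, 0.18 in vehicle replicate 2, and 0.16, -0.03 and 0.10 in LSN replicates 1, 2 and 3. Because vehicle replicate 1 is part of the mean that the others are set against, it raises their values: with it left out of the reference, the medians of the other 4 were 0.06, 0.03, -0.15 and -0.01. With the median of all 5 tumours as the reference, the value of vehicle replicate 1 was -0.24 and those of the others lay between 0.00 and 0.03, so the size of the shift depends on the reference. The low value was that of 1 of the 2 vehicle tumours, and the other vehicle tumour stood with the LSN tumours.

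No other autosome was as low in vehicle replicate 1, where the remaining 18 ranged from -0.28 on chromosome 11 to 0.20 on chromosome 18. Shifts of this size did occur elsewhere in other tumours. Of the 95 values for 19 autosomes in 5 tumours, the chromosome 14 value in vehicle replicate 1 was number 4 by size, after chromosome 12 in LSN replicate 2 at -0.91, chromosome 12 in LSN replicate 3 at 0.72 and chromosome 18 in LSN replicate 2 at -0.61, the last over the 255 genes of that chromosome in the table used here. In LSN replicates 1, 2 and 3, chromosome 14 lay inside the range of the other autosomes. In vehicle replicate 2 its 0.18 was above the highest other autosome, chromosome 8 at 0.15. That 0.18 became 0.06 with vehicle replicate 1 left out of the reference, and 0.00 against the median of all 5 tumours.

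**Figure D1:**
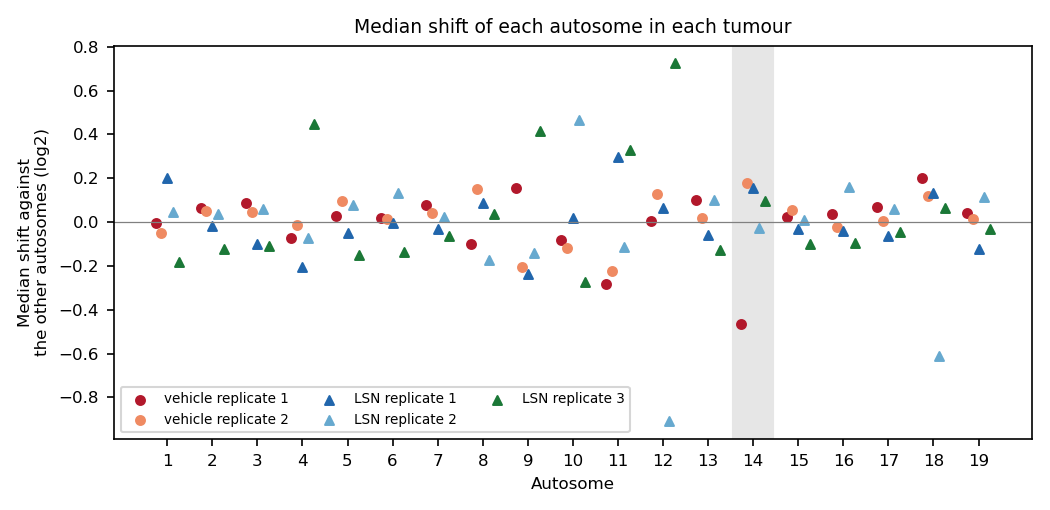
Median shift (log2 scale, y axis) of the genes of each autosome (x axis) with a mean of at least 16 CPM, 1 symbol per tumour, circles for vehicle and triangles for LSN, with chromosome 14 shaded. Vehicle replicate 1 sits at -0.47 on chromosome 14 while the other 4 tumours lie between -0.03 and 0.18, and the larger shifts are on chromosomes 12 and 18.

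The shift in vehicle replicate 1 was not spread over the whole chromosome. In windows of 10 Mb counted by gene start, its median was 0.08 at 0 to 10 Mb (9 members) and 0.08 at 10 to 20 Mb (18 members). It was then -0.58 at 20 to 30 Mb (38 members), -0.66 at 30 to 40 Mb (36 members), -0.60 at 40 to 50 Mb (28 members), -0.47 at 50 to 60 Mb (77 members) and -0.77 at 60 to 70 Mb (47 members). From there it returned to 0.03 at 70 to 80 Mb (43 members), which holds the end of the low stretch, to 0.04 at 90 to 100 Mb (8 members), 0.23 at 100 to 110 Mb (14 members) and 0.08 at 120 to 130 Mb (15 members). The window at 110 to 120 Mb, with 4 members, was at -0.25, and the 2 members at 80 to 90 Mb were not summarised.

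Among windows with at least 10 genes, 5 of the 9 on chromosome 14 were under -0.4 in vehicle replicate 1. In the same tumour 3 of 222 windows of the other autosomes (1.35%) were, all on chromosome 8. In the other 4 tumours 0 of the 9 windows of chromosome 14 were under -0.4. LSN replicate 2 had 22 such windows on other autosomes, on chromosomes 8, 12 and 18, so low stretches of this kind were not particular to chromosome 14 or to vehicle replicate 1.

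The stretch that best separated low from other members in vehicle replicate 1, by least absolute deviation from 1 level inside and 1 outside, ran from Gng2, a G protein gamma subunit that starts at 19872559, to Rcbtb2, which starts at 73123037. It holds 243 of the 339 members over 53.3 Mb and is called the low run. Inside it the median shift was -0.60 in vehicle replicate 1, or 0.659 of the level in the other tumours. It was 0.23, 0.19, 0.00 and 0.14 in vehicle replicate 2 and LSN replicates 1, 2 and 3. With vehicle replicate 1 left out of the reference, the medians of these other tumours in the run were 0.06, 0.05, -0.185 and 0.00. For the 96 members outside the run, the medians were 0.10 in vehicle replicate 1 and 0.00, 0.00, -0.11 and -0.06 in the others. The edges were placed on the same values, so the contrast between inside and outside is a description and carries no test.

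The edges were searched for again with vehicle replicate 1 set against each other tumour alone. These searches share the values of vehicle replicate 1, so they are not independent of each other or of the first search. In simulated data an edge could be misplaced by more members than it moved here, so the edge genes are approximate. Against vehicle replicate 2 the run began 1 member earlier, at Rtraf, and against LSN replicate 3 it began at Kcnk16, both ending at Rcbtb2. Against LSN replicate 2 the edges were the same, and against LSN replicate 1 the run ended at Slc39a14, which starts at 70303469, so that it held 231 members over 50.4 Mb. The median log2 ratio of vehicle replicate 1 to each of the others inside the run of 243 members was -0.66, -0.62, -0.48 and -0.57, with 82.3 to 87.7% of members below 0, and outside it was 0.14, 0.08, 0.19 and 0.13. The 6 ratios among the other 4 tumours lay between -0.07 and 0.23 inside the run.

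**Figure D2:**
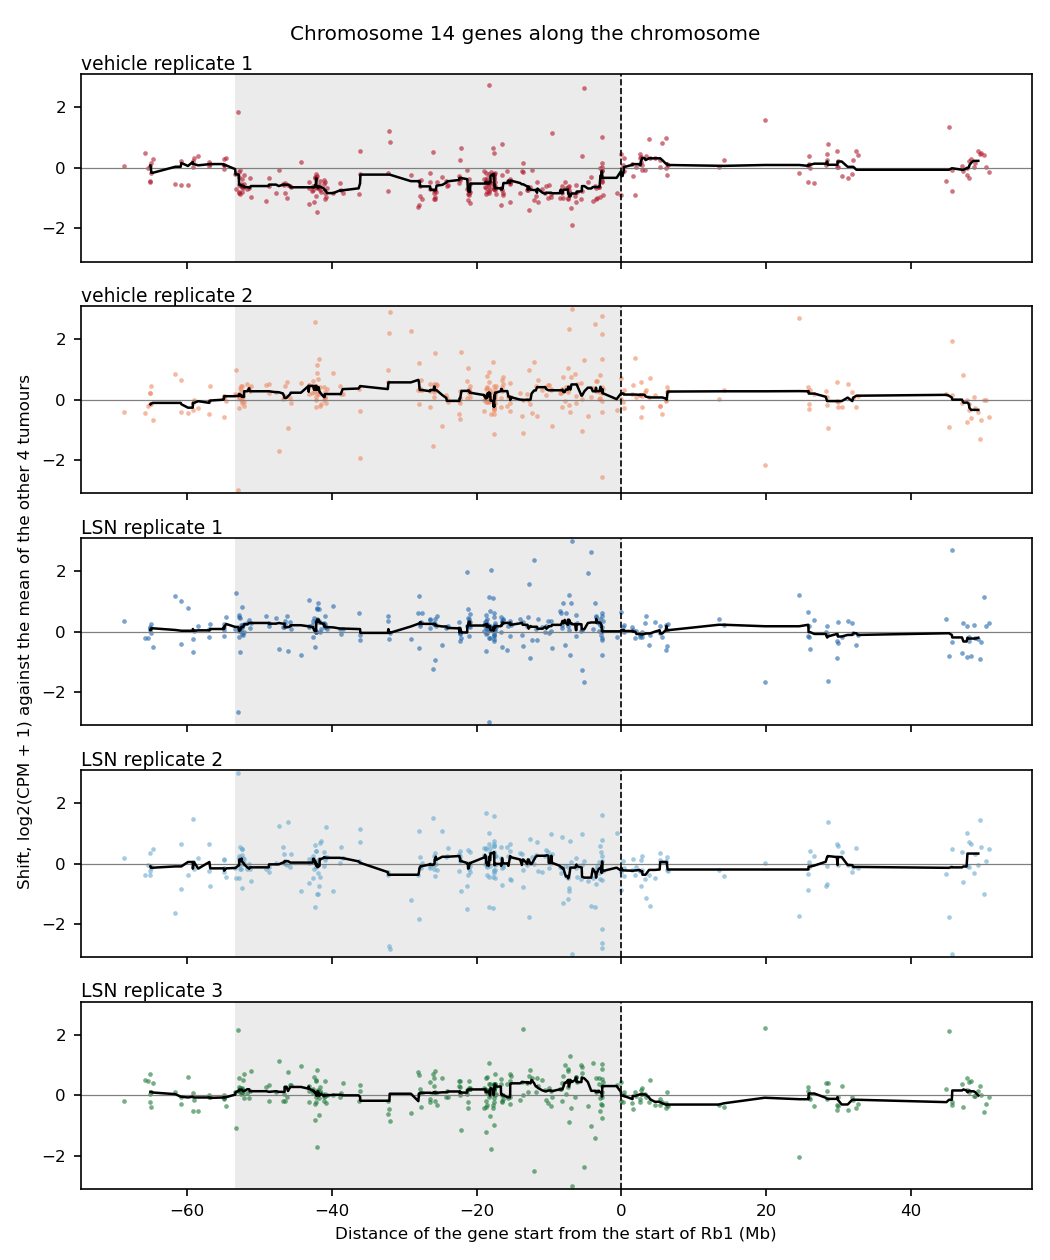
Shift of each of the 339 chromosome 14 members (points, log2 scale, y axis) against the distance of its start from that of Rb1 (x axis, Mb) in each tumour, with the running median of 11 genes (line), the low run (grey) and Rb1 (dashed), and 8 points beyond 3 drawn at the edge of the axis. The running median of vehicle replicate 1 lies below 0 through most of the grey span. It returns to near 0 only past Rb1, since at Rb1 its 11 genes come from both sides. In the other 4 tumours no drop of that length is seen.

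Most members of the run shared the shift. In vehicle replicate 1, 168 of the 243 (69.1%) lay between -1 and -0.3, 24 at -1 or lower, 32 between -0.3 and 0 and 19 above 0. Vehicle replicate 1 was the lowest of the 5 tumours for 154 of the 243 (63.4%), against 6 of the 96 members outside the run (6.25%), 12.1% of the genes of the other autosomes and 13.6% of all 10150 genes at the same minimum. The shift was larger in members with more counts: in 3 equal groups of the run's members by mean CPM, from lowest to highest, the medians were -0.47, -0.62 and -0.72. Genes under the minimum, which the rule leaves out, had a median of -0.52 in vehicle replicate 1 within the same span for 76 genes of 4 to 16 CPM, against 0.12 for 45 outside it, and LSN replicate 2 was at 0.09 within it. For the 68 genes of 1 to 4 CPM within the span, vehicle replicate 1 was at -0.18 and LSN replicate 2 as low at -0.19. LSN replicate 2 was more often the lowest tumour than vehicle replicate 1 among these genes, at 30.3% against 25% for 4 to 16 CPM and 45.6% against 19.1% for 1 to 4 CPM. On the other autosomes, LSN replicate 2 was lowest for 31.4% and vehicle replicate 1 for 10.6% of the genes of 4 to 16 CPM. For genes of 1 to 4 CPM there, these shares were 34.1% and 9.79%. Vehicle replicate 1 was thus lowest more often within the span than on the other autosomes at both levels.

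The run holds 6 members that were highest in vehicle replicate 1. They were Myh6, the alpha myosin heavy chain of heart muscle, Nefl, the neurofilament light chain, Xkr6, Dhrs4, Emc9 and the predicted gene Gm16973. Myh6 was at 76.9 and 14.9 CPM in vehicle replicates 1 and 2 and at 0.17, 27.0 and 28.4 CPM in the LSN tumours. Of 7 other heart muscle genes, listed after values were seen, 6 were highest in vehicle replicate 1 and 5 lowest in LSN replicate 1. Among them Tnnt2, cardiac troponin T, was at 34.8 and 10.6 CPM with vehicle and at 0.11, 12.0 and 9.79 CPM with LSN, and the part of heart muscle in the Myh6 value was not tested. Nefl was at 57.2 and 25.5 CPM with vehicle and at 4.25, 12.4 and 2.46 CPM with LSN. Leaving out the members that mark other cell types (233 members left) gave the run the same median of -0.60.

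Rb1 lay at the upper edge of the run and was itself not low in vehicle replicate 1. Rb1 spans chr14:73183673-73325822 on the minus strand, and its level was 96.3 CPM in vehicle replicate 1, 71.7 in vehicle replicate 2, and 73.0, 42.7 and 91.4 CPM in LSN replicates 1, 2 and 3. Vehicle replicate 1 was the highest and LSN replicate 2 the lowest, with shifts of 0.44 and -0.89, and the groups overlapped. By edgeR's quasi-likelihood test the log2 fold change of LSN against vehicle was -0.20 ± 0.37 (SE), unadjusted p = 0.612 and adjusted p = 0.9996. These are counts over the whole gene and do not show which exons the reads came from, so they do not check any deletion within Rb1.

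The 6 members before Rb1 had a median shift of -0.64 in vehicle replicate 1 and the 6 after it one of -0.01. Rcbtb2, which encodes a protein with RCC1 repeats and a BTB domain, is the last of the 6 before: it was at 35.8 CPM in vehicle replicate 1, 83.8 in vehicle replicate 2, and 83.4, 48.2 and 51.4 CPM with LSN, lowest in vehicle replicate 1 by a shift of -0.90. Its span, 73123037 to 73207843, overlaps the end of Rb1 on the opposite strand, and the libraries kept no strand, so reads from the shared bases cannot be told apart. Fndc3a, a fibronectin type III domain protein, was at 76.9 CPM in vehicle replicate 1, 96.5 in vehicle replicate 2, and 107, 203 and 143 CPM with LSN, and all 3 LSN tumours were above both vehicle tumours. Xpo7, a nuclear transport receptor, had a shift of -0.88 in vehicle replicate 1, Fam160b2 one of -0.44 and Nudt18 one of -0.33. Hr, a corepressor of nuclear receptors, was at 0.03 and did not share it.

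Itm2b, an integral membrane protein and the first member after Rb1, was at 658 CPM in vehicle replicate 1, 562 in vehicle replicate 2, and 653, 613 and 525 CPM with LSN, with overlapping groups and a shift of 0.10 in vehicle replicate 1. Med4, a Mediator subunit, was at -0.12, Sucla2, a subunit of the mitochondrial succinate ligase, at 0.31, the esterase Esd at 0.12 and Lrch1 at -0.27. Lcp1, the plastin of blood cells, was at -0.91: it had 52.0 CPM in vehicle replicate 1, 179 in vehicle replicate 2, and 74.4, 66.3 and 88.0 CPM with LSN. The 6 macrophage markers summed to 121 CPM in vehicle replicate 1, 356 in vehicle replicate 2 and 207 to 306 CPM with LSN, and their part in the Lcp1 value was not tested.

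Over the 42 members that start within 5 Mb of Rb1, the median shift was -0.09 in vehicle replicate 1, 0.24 in vehicle replicate 2, and 0.07, -0.26 and 0.03 in LSN replicates 1, 2 and 3. Without LSN replicate 2 in the reference, the value of vehicle replicate 1 was -0.24. The main value near 0 in vehicle replicate 1 combines unlike sides: the 23 members below Rb1 had a median of -0.47 and Rb1 with the 18 above it had one of 0.20. In LSN replicate 2 both sides were alike, at -0.27 and -0.26, and with vehicle replicate 1 left out of the reference its median there was -0.46. LSN replicate 2 was the lowest tumour for 50% of the 42 members and vehicle replicate 1 for 28.6%. Over the genes of the other autosomes these shares were 27.9% and 12.1%. Within 10 Mb, where more of the run is included, the value of vehicle replicate 1 was -0.38 over 76 members.

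**Figure D3:**
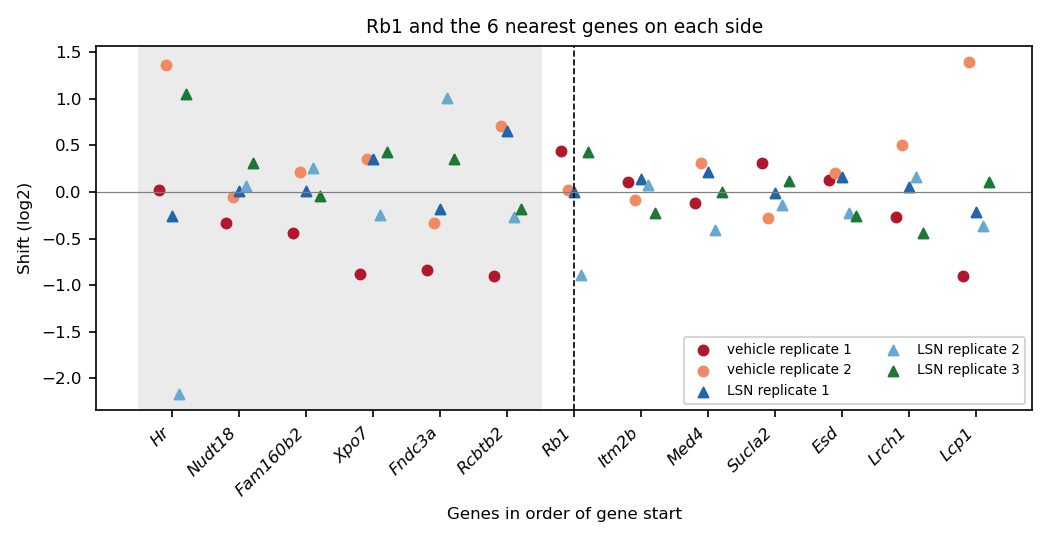
Shift (log2 scale, y axis) of Rb1 and of the 6 nearest members on each side in order of gene start (x axis), 1 symbol per tumour, circles for vehicle and triangles for LSN, with members of the low run on grey. Vehicle replicate 1 is low at Xpo7, Fndc3a and Rcbtb2, at -0.88, -0.84 and -0.90, and not at Rb1, where LSN replicate 2 is lowest at -0.89.

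The other genes of the RB and E2F pathway were read from a list of 29 genes on all chromosomes, Rb1 included. By edgeR 0 of the 29 passed an adjusted p of 0.05 in the comparison of LSN with vehicle, 1 had an unadjusted p under 0.05, where 4.27% of all genes tested did, and by DESeq2 0 passed. This count is no more than the share over all genes. The gene was Ccnd1, cyclin D1, which activates the kinases that phosphorylate the retinoblastoma protein: it was at 28.9 and 54.7 CPM in the vehicle tumours and at 16.004, 7.13 and 6.81 CPM in the LSN tumours (log2 fold change -1.997 ± 0.53 SE, edgeR unadjusted p = 0.0106, adjusted p = 0.9996). Rbl1, the related pocket protein p107, was at 195 CPM in vehicle replicate 1 and between 72.9 and 109 CPM in the others, the highest tumour standing apart. Rbl2, the pocket protein p130, lay between 24.1 and 51.2 CPM, and E2f1 between 92.7 and 156 CPM, with overlapping groups.

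Sorted by what they do, the members inside the run were low in vehicle replicate 1 in most role groups. The run was placed on low values in that tumour, so low values in its members of any role follow from its definition. Over all 243 members of the run, vehicle replicate 1 was lowest for 154 (63.4%), the share to set beside each count below. Of the 15 cell cycle genes listed, 12 were members and 10 lay in the run, and 9 of those 10 were lowest in vehicle replicate 1, with medians of -1.01 there, 0.32 in vehicle replicate 2, and 0.31, -0.36 and 0.64 in LSN replicates 1, 2 and 3. Ska3, a subunit of the kinetochore's microtubule coupler, was at 19.9 CPM in vehicle replicate 1, 49.4 in vehicle replicate 2, and 45.1, 26.9 and 54.6 CPM with LSN. Cenpj, a centriole assembly protein, was at 28.8 CPM in vehicle replicate 1 and at 56.1, 74.3, 60.4 and 75.1 CPM in the others, so the lowest tumour stood apart. Dlgap5, a spindle protein and substrate of Aurora A, was at 57.5 CPM in vehicle replicate 1, 125 in vehicle replicate 2, and 115, 76.6 and 154 CPM with LSN.

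The exception among the 10 was Esco2, which acetylates cohesin, lowest in LSN replicate 2 at 36.9 CPM and next in vehicle replicate 1 at 42.3 CPM. Outside the run, Diaph3, a formin of the actin cytoskeleton, had a shift of 0.04 in vehicle replicate 1. Bora, the cofactor through which Aurora A activates Plk1, was at 46.3 CPM in vehicle replicate 1, 73.1 in vehicle replicate 2, and 85.6, 35.0 and 67.5 CPM with LSN, a shift of -0.48 in vehicle replicate 1. A list of 24 mitotic genes of other chromosomes was drawn up after the values were seen. Its medians were -0.28 in vehicle replicate 1, 0.15 in vehicle replicate 2, and -0.13, -0.50 and 0.80 in LSN replicates 1, 2 and 3. Vehicle replicate 1 was lowest for 3 of the 24, near its share of 12.1% over the genes of the other autosomes. By these medians, mitotic genes also differed between tumours away from chromosome 14, most in LSN replicates 2 and 3. The part of that in the values of the cell cycle members was not tested.

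All 13 members among the chromatin and DNA genes lay in the run, and 11 were lowest in vehicle replicate 1, with a median of -0.73. Pbrm1, a subunit of the PBAF remodelling complex, was at 136 CPM in vehicle replicate 1, 228 in vehicle replicate 2, and 265, 211 and 291 CPM with LSN. Supt16, a histone chaperone of the FACT complex, was at 95.5 CPM in vehicle replicate 1 and at 170, 172, 151 and 196 CPM in the others, and Chd8, a chromatin remodeller, at 81.4 CPM and at 148, 159, 110 and 138 CPM. In each of these 3 genes vehicle replicate 1 lay below all 4 other tumours. The exceptions were Parp2, a poly(ADP-ribose) polymerase, at -0.26, and Tep1, a telomerase-associated protein, at 0.25, both lowest in vehicle replicate 2.

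Of the 7 tumour suppressor members, Rb1 among them, 6 lay in the run and 5 of these were lowest in vehicle replicate 1. Bap1, a nuclear deubiquitinase, was at 84.7 CPM in vehicle replicate 1, 141 in vehicle replicate 2, and 147, 95.8 and 128 CPM with LSN. Bmpr1a, a receptor of bone morphogenetic proteins, was at 72.9 CPM in vehicle replicate 1, 116 in vehicle replicate 2, and 102, 143 and 111 CPM with LSN. Ppp2r2a, a regulatory subunit of protein phosphatase PP2A, had a shift of -0.79 and Bnip3l, a receptor of mitophagy, one of -0.56. For Bap1 and Bmpr1a the LSN tumours lay above vehicle replicate 1 and on both sides of vehicle replicate 2.

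Of the 6 members in the group of interferon and proteasome genes, 5 lay in the run and 3 were lowest in vehicle replicate 1. Psme2, a subunit of the interferon-inducible proteasome activator PA28, was at 52.9 CPM in vehicle replicate 1, 65.8 in vehicle replicate 2, and 80.3, 87.4 and 81.3 CPM with LSN, and its groups did not overlap. Its partner subunit Psme1 was at 116 and 96.8 CPM with vehicle and at 114, 182 and 155 CPM with LSN. Irf9, the DNA-binding subunit of the type I interferon transcription factor, was at 24.4 and 39.4 CPM with vehicle and at 33.2, 84.0 and 19.98 CPM with LSN. Its groups overlapped, and its span overlaps that of Rnf31, whose reads cannot be told apart where they share bases. Psmd6, a proteasome subunit that lies before the run, had a shift of 0.31 in vehicle replicate 1.

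Of the 9 members of mitochondria and translation, 7 lay in the run, 4 of them lowest in vehicle replicate 1, with a median of -0.35 there. Vdac2, a channel of the mitochondrial outer membrane, was at 129 CPM in vehicle replicate 1 and at 173, 161, 134 and 162 CPM in the others. The ribosomal protein genes Rps24, in the run, and Rpl15, before it, had shifts of -0.34 and 0.08.

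Neuronal and secretory members differed widely between tumours of the same treatment. Of 12, 7 lay in the run and 3 of these were lowest in vehicle replicate 1. Stmn4, a neuronal regulator of microtubules, was at 2.53 CPM in vehicle replicate 1, 120 in vehicle replicate 2, and 102, 0.20 and 0.61 CPM in LSN replicates 1, 2 and 3, high in 1 vehicle and 1 LSN tumour and close to 0 in the other three. Kcnk16, a potassium channel of pancreatic endocrine cells that is not in this group and is named for its deviations, was high where Stmn4 was low: it was at 49.1 and 0.29 CPM in vehicle replicates 1 and 2 and at 2.97, 107 and 55.8 CPM with LSN. Pcdh9, a protocadherin outside the run, was at 31.6 and 2.92 CPM with vehicle and at 4.25, 11.9 and 44.2 CPM with LSN. Dpysl2, a protein of axon growth, was at 81.7 CPM in vehicle replicate 1 and at 210, 154, 125 and 129 CPM in the others. Of these 4 genes, Dpysl2 alone was lowest in vehicle replicate 1.

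The 3 lung epithelium members lie in the run and 0 of them were lowest in vehicle replicate 1. Sftpc, the surfactant protein C of alveolar type II cells, was at 1596 CPM in vehicle replicate 1, 3992 in vehicle replicate 2, and 789, 180 and 574 CPM in the LSN tumours, with vehicle above LSN in every case. Sftpa1 was at 271 and 439 CPM with vehicle and at 115, 27.8 and 102 CPM with LSN, and Sftpd at 108 and 322 CPM with vehicle and at 63.8, 12.3 and 39.7 CPM with LSN. They are themselves markers of normal lung, and the 4 lung markers of other chromosomes were likewise lower in every LSN tumour and lowest in LSN replicate 2, as a sum. Of the 3 stromal and 3 immune members, Lcp1 alone was lowest in vehicle replicate 1. Among heart muscle members, Myh6 differed as given above, and Vcl, an actin-linking protein of many tissues, was lowest in vehicle replicate 1 at 23.3 CPM against 30.9 to 43.3 CPM.

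**Figure D4:**
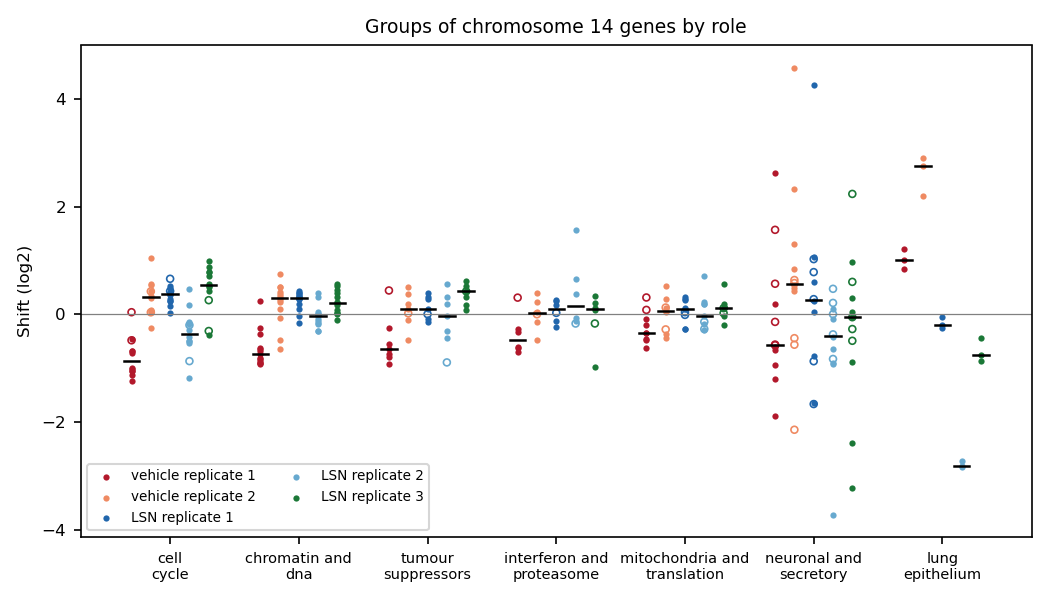
Shift (log2 scale, y axis) of the members of 7 role groups (x axis), 1 point per member and colour per tumour, filled in the low run and open outside it, with the median of each group and tumour as a bar. By median, vehicle replicate 1 is the lowest column in every group drawn except lung epithelium, where it lies above 0 at 1.01. Its medians are -0.86, -0.73 and -0.64 for cell cycle, chromatin and tumour suppressor members. For interferon and proteasome, mitochondria and translation, and neuronal and secretory members they are -0.47, -0.34 and -0.57.

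Some single members deviated by more than the shared shift of the run, in every tumour. In vehicle replicate 1 the lowest were Stmn4 at -1.89, Nt5dc2, a 5'-nucleotidase domain protein, at -1.47 and Amer2, a regulator of Wnt signalling, at -1.41. Nt5dc2 was at 53.3 and 190 CPM with vehicle and at 178, 65.2 and 186 CPM with LSN, so that LSN replicate 2 was also low. In LSN replicate 2, Dzip1, a protein of the primary cilium that lies outside the run, was at 1.37 CPM against 10.7 to 76.7 CPM in the others. In LSN replicate 3, Atp8a2, a phospholipid flippase, was at 127 CPM against 19.1 to 42.5 CPM. In LSN replicate 1, Stc1, a secreted glycoprotein, was at 84.8 CPM against 7.99 to 19.7 CPM.

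The comparison of LSN with vehicle asked which genes differ in tumours given the inhibitor, and no chromosome 14 member passed. By edgeR, 0 of the 339 members and 0 of 17906 genes (0%) had an adjusted p under 0.05, and by limma-voom 0 as well, while DESeq2 called 0 members and 100 of 18547 genes (0.539%). At an unadjusted edgeR p under 0.05, 2 members were higher and 8 lower, where 1.06% of all genes tested were higher and 3.21% lower. All LSN tumours were above both vehicle tumours for 41 of the 339 members (12.1%), against 7.03% of the 10150 genes at the same minimum, and below both for 21 (6.19%), against 8.77%. Of the 41, 38 lay in the run, and of the 21, 13 lay outside it. The run holds 243 of the 339 members. LSN was above in 15.6% of members in the run and 3.13% outside it, and below in 3.29% and 13.5%. Since the run was placed on low values in vehicle replicate 1, its members more easily have LSN above both vehicle tumours, so this split is no separate result.

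The members with the smallest p-values among those whose groups did not overlap all lay in the run. Ecd, a homologue of ecdysoneless that takes part in the cell cycle and splicing, was at 47.3 and 52.9 CPM with vehicle and at 83.3, 67.6 and 68.2 CPM with LSN (log2 fold change 0.63 ± 0.23 SE, edgeR unadjusted p = 0.0390, adjusted p = 0.9996). Eaf1, a transcription elongation cofactor, was at 81.7 and 103 CPM with vehicle and at 119, 169 and 138 CPM with LSN, a log2 fold change of 0.72. Fndc3a and the poly(ADP-ribose) polymerase Parp4 followed, with log2 fold changes of 0.90 and 0.69. In all 4 the lowest tumour was vehicle replicate 1, and without it the log2 fold changes were 0.55, 0.56, 0.75 and 0.55 in the order given.

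In the other direction, Rnase4, a secreted ribonuclease, was at 47.5 and 76.2 CPM with vehicle and at 28.3, 18.3 and 16.3 CPM with LSN (log2 fold change -1.48 ± 0.36 SE, edgeR unadjusted p = 0.0076, adjusted p = 0.9996). Sftpc, Sftpa1 and Nefl had log2 fold changes of -2.38, -2.05 and -2.58. The sum of the 4 lung markers of other chromosomes was also lower in every LSN tumour, and the part of lung epithelium in these values was not tested.

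As a group, the members had a median log2 fold change of 0.25, against 0.09 for the genes of the other autosomes, and this difference rested on vehicle replicate 1. The median was 0.34 in the run and 0.01 outside it, so the difference from the other autosomes was 0.25 in the run and -0.09 outside it. Without vehicle replicate 1, that difference was -0.07 both for the run and for all members, and 136 rather than 203 of the 243 members of the run were above 0. Of all members, 74.3% were above 0 in the full fit and 56.3% without vehicle replicate 1. For the genes of the other autosomes, these shares were 61.9% and 62.9%. Without vehicle replicate 2, which leaves vehicle replicate 1 as the only vehicle tumour, the difference was 0.59 in the run. In fits with 1 vehicle tumour, that tumour is assumed to vary like the LSN tumours.

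**Figure D5:**
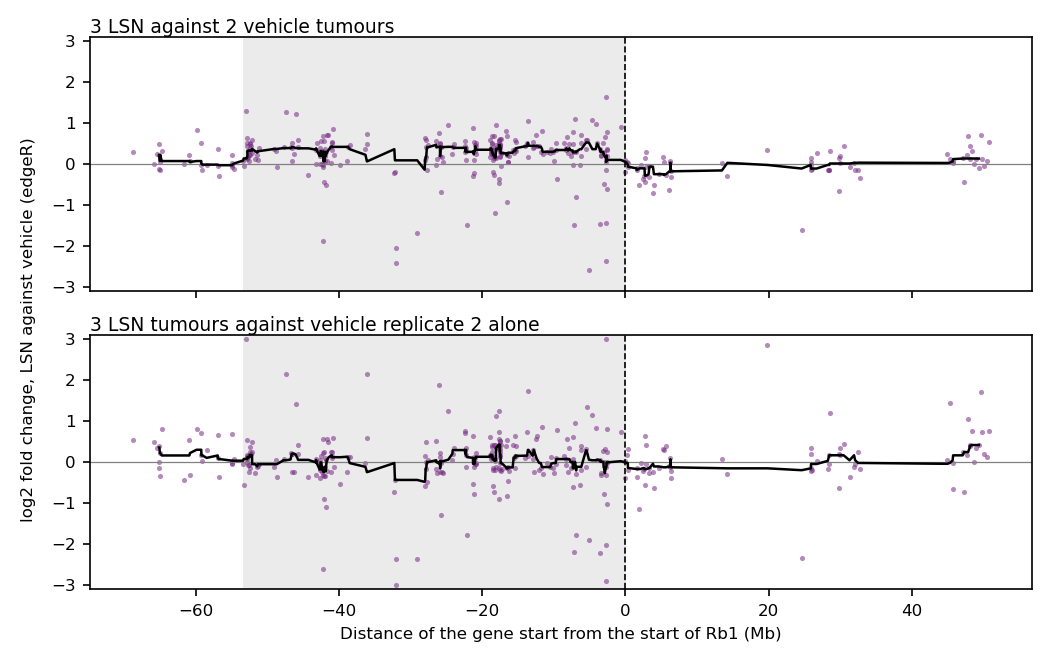
Log2 fold change of LSN against vehicle (edgeR, y axis) of each chromosome 14 member (points) against the distance of its start from that of Rb1 (x axis, Mb), with the running median of 11 genes (line), the low run (grey) and Rb1 (dashed), and 2 points beyond 3 drawn at the edge of the axis. With both vehicle tumours (top) the median in the run is 0.34, and against vehicle replicate 2 alone (bottom) the line runs near 0 on the grey span.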

How the data were processed

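RNA was measured in 5 lung tumours by RNA-seq. Per the labels' protocols, libraries were made with a kit that keeps no strand and the authors mapped paired reads to mm10 with STAR; the sources used here name no counting program or annotation. The authors deposited whole-number read counts per gene, not normalized. All 339 members have an identifier with the same start and end in GENCODE M21, and 96 overlap another gene of at least 1 CPM, so that reads of the shared bases are uncertain without strand. Replicates were numbered in accession order within each treatment label, and p-values measure only the spread between the tumours sampled, which may be technical.

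CPM was computed from column sums, with a pseudocount of 1 on the log2 scale, in Python 3.11.15. LSN was compared with vehicle over all genes by edgeR 4.0.16 (quasi-likelihood test, robust, TMM, filterByExpr at a count of 10 and a total of 15, Benjamini-Hochberg at 0.05, 3 residual degrees of freedom) in R 4.3.3, with DESeq2 1.42.0 and limma 3.58.1 (voom) as alternatives. An exact test of 2 against 3 tumours cannot go below p = 0.1. The scripts were tested on simulated data. There the search for the run's edges missed a first tolerance, which was then widened, so single edge genes are approximate. The low run and its edges were defined after seeing the values.

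Members, role groups, the pathway list and marker lists (neuroendocrine, lung epithelium, endothelium, fibroblast, macrophage, T and NK, B and plasma, neutrophil) were chosen with earlier results of these data known. Named genes were Rb1 and its 6 nearest members on each side, the members of largest deviation per tumour, the 4 per direction with the smallest p among non-overlapping ones, and members of the role groups; some are not reported, and the members at the run's edges and those highest in vehicle replicate 1 were named after their values were seen. Summed CPM in the vehicle and in the LSN tumours was 184 to 359 and 62.7 to 90.7 for endothelium, 704 to 1442 and 366 to 788 for fibroblasts, 4.61 to 13.6 and 1.97 to 9.40 for T and NK cells, 51.5 to 229 and 13.2 to 125 for B and plasma cells, and 5.11 to 24.7 and 2.73 to 8.17 for neutrophils, whose marker Retnlg was at 0 in at least 1 tumour.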

Additional observations from a re-analysis of the deposited data

How the results depend on the processing

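Of 207 alternative values, 187 differed from the reported one by less than the spread between replicates (for counts, by up to 1.5 times), 18 moved by more and 2 reversed. That spread is wide, since vehicle replicate 1 is part of it: among the 187, 5 small values changed sign and 31 changed by over 1.5 times. Leaving out each other tumour in turn, the median shift of the members lay between -0.47 and -0.42 in vehicle replicate 1, 0.06 and 0.23 in vehicle replicate 2, 0.0345 and 0.21 in LSN replicate 1, -0.15 and 0.0335 in LSN replicate 2, and -0.0093 and 0.16 in LSN replicate 3, and with the median of all 5 tumours as reference vehicle replicates 1 and 2 stood at -0.24 and 0.00, LSN replicates 1, 2 and 3 at 0.0338, 0.00 and 0.00, and vehicle replicate 1 in the low run at -0.43. The ends at 0.0345, -0.15 and -0.0093 came without vehicle replicate 1. In the low run vehicle replicate 1 lay between -0.64 and -0.58. Around Rb1, vehicle replicate 1 ranged from -0.24, without LSN replicate 2, to -0.06 and moved to -0.38 within 10 Mb, and LSN replicate 2 ranged from -0.46, without vehicle replicate 1, to -0.21. With windows of 5 Mb the lowest window of LSN replicate 3 was at -0.60. The median log2 fold change of the members ranged from 0.07 to 0.51. Less that of the other autosomes it ranged from -0.0725, without vehicle replicate 1, to 0.41, without vehicle replicate 2, and that of the run from -0.0698 to 0.59 with the same tumours left out. edgeR called 0 genes in every fit, with 764 at an unadjusted p under 0.05 in the full fit, and DESeq2 called 100. In DESeq2 fits chosen after seeing the data, the count was 140 without vehicle replicate 1, 36 without vehicle replicate 2, and it was 483, 86 and 44 on leaving out LSN replicates 1, 2 and 3 in turn, with 4, 0, 6, 1 and 0 members among the 5 sets of calls. The cause of these moves was not tested. The number of tumours, 2 vehicle and 3 LSN, limits the precision of every comparison, and genes of 1 to 4 CPM were less well measured than the members. No paired analysis was possible because the labels give each tumour its own number and share none between the treatments.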
